A study of Homo sapiens with 4 samples.

Results

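The genes described here are the long noncoding hosts of small nucleolar RNAs (snoRNAs), taken as every row of the count table whose symbol is SNHG followed by a number, together with GAS5, ZFAS1 and DANCR. The rule found 30 of 25283 genes, and all 30 were among the 17317 genes with enough counts to be tested. The rule itself reads symbols only. RNA had been sequenced from cells labelled as neurons, derived through neural progenitors from the embryonic stem cell line H1. The U1_OE group (2 libraries) carried a lentiviral vector for overexpression of U1 snRNA, and the WT group (2 libraries) was wild type with an empty vector, with 36 hours given for the vector. The treatment text of the WT samples names the overexpression vector as well, so the groups rest on the titles and genotype labels. Total estimated counts were 16713505 and 19057423 in the U1_OE libraries, against 17061796 and 17636307 in the WT libraries. Whether replicates were separate cultures is not stated, so the p-values reflect library-to-library spread that may be technical.

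The cell type label was set against marker genes. All 11 mesenchymal markers examined, collagen genes and VIM among them, reached 10 CPM (the unit of level used throughout, after TMM scaling of the libraries) in every library, with a summed level of 85172 and 74993 CPM in U1_OE and 61136 and 79392 CPM in WT. Of 14 pan-neuronal markers 12 were in the table and 1, TUBB3, reached 10 CPM in every library. The summed pan-neuronal level was 336 and 373 CPM in U1_OE and 190.1 and 122 CPM in WT, with TUBB3 giving most of it (264 and 338 CPM in U1_OE, 159 and 104 CPM in WT). GAP43, found in the growth cones of axons, had 46.9 and 11.5 CPM in U1_OE and 3.30 and 1.27 CPM in WT. The synaptic genes SNAP25 and SYT1 and the dendritic gene MAP2 lay between 2.65 and 8.19 CPM, and DCX, which binds microtubules in immature neurons, reached at most 0.157 CPM in U1_OE and 0.111 CPM in WT. With high collagen genes and few abundant neuronal markers, the libraries go against the label as it stands, and the cells are called H1-derived cells here. Both marker lists had a median above 0, with mixed signs. The median log2 fold change was 0.43 over the 11 mesenchymal markers, 9 above 0 and 2 (COL1A2 and COL3A1) below. Of these 11, 7 had both U1_OE libraries above both WT libraries and 4 an unadjusted edgeR p under 0.05, all higher. The median was also 0.43 over the 8 tested neuronal markers, 6 above 0 and 2 (SYT1 and NEFL) below. Of these 8, 2 had both U1_OE libraries above both WT libraries and 2 such a p, both higher. Among all tested genes the median was -0.0055. Of them 19.7% had both U1_OE libraries above both WT libraries, and 4.36% had such a p and were higher. By edgeR 0 genes of either list were called at an adjusted p of 0.05. At that threshold DESeq2 called 1 mesenchymal and 2 neuronal markers, and 1.08% of the genes to which it gave an adjusted p. The part of these marker differences in the results below was not tested. In such bulk libraries fewer cells of a type and less RNA per cell cannot be told apart.

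Most human snoRNAs lie in introns and are released when the host transcript is spliced and the intron is trimmed. Box C/D snoRNAs guide ribose methylation and box H/ACA snoRNAs guide pseudouridylation, mostly of ribosomal RNA, while scaRNAs guide the same changes on spliceosomal snRNAs. In several of these genes the introns hold the conserved product, and the spliced exons carry short reading frames that expose the RNA to nonsense-mediated decay (NMD), as is known for GAS5 and SNHG1. Many also start with a terminal oligopyrimidine (TOP) tract, a feature shared with ribosomal protein genes. U1 snRNA pairs with the 5′ splice site at the start of an intron, and the comparison asks how the spliced hosts compare between cells given extra U1 snRNA and cells with an empty vector. The counts are of the host transcripts, and the snoRNAs themselves and U1 snRNA were not analysed here.

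By RefSeq positions on GRCh38, 14 hosts held mainly box C/D snoRNAs, 11 mainly box H/ACA snoRNAs and 4 a scaRNA, and SNHG28 held no entry with such a name. SNHG14 held 83 and GAS5 held 11, and the other hosts with an entry 1 to 8. The following snoRNAs are shown because they are the intron products of the 3 hosts with the smallest p in the comparison, ZFAS1, SNHG1 and DANCR. The sequences are from GENCODE release 29, with the letters TGATGA of box C and CTGA of box D in capitals for the box C/D snoRNAs, and ACA near the 3′ end in capitals for the box H/ACA snoRNA. ZFAS1 on chromosome 20 held a family of similar snoRNAs.
SNORD12C: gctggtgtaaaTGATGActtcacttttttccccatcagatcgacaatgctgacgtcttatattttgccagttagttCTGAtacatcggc
SNORD12B: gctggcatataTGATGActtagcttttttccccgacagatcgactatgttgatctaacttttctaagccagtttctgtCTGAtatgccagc
SNORD12: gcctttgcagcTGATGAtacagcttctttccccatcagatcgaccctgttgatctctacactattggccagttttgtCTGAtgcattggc
For SNHG1 on chromosome 11 those shown are the ones, among the 6 with a sequence matched by name, in which TGATGA was found near the 5′ end. SNORD29 and SNORD31 are named only.
SNORD30: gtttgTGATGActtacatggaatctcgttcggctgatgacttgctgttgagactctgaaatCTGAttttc
SNORD27: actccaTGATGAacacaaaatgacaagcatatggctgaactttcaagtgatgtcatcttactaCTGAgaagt
SNORD25: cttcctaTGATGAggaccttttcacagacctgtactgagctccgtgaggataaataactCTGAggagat
DANCR on chromosome 4 held one box H/ACA snoRNA.
SNORA26: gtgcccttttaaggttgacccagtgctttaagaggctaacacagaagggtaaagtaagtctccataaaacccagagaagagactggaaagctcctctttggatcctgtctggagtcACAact

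The starts of the host genes were searched for a C followed by at least 4 further C or T letters, beginning within 5 bases of the RefSeq start on the sense strand, as a simple form of the TOP tract. RefSeq start windows were matched for 26 of the 30 hosts. The tract was found at 13 of the 26 (50%), against 57 of 79 ribosomal protein starts (72.2%) and 7408 of 35116 RefSeq starts in all (21.1%). A match of letters is a description and not a mapped start. The windows below run from 50 bases before the start to 50 bases from it on, on GRCh38.p14, with any tract in capitals. They are those of the 4 most abundant hosts with an entry and of the 3 hosts with the smallest p. The outermost GENCODE starts of GAS5 (173868882), SNHG29 (16438822) and ZFAS1 (49278178) lie outside the RefSeq windows shown. Those of SNHG5 (85678748), SNHG1 (62855914) and DANCR (52712404) lie inside them but more than 5 bases from the RefSeq start. For all of these hosts the tract result holds for the RefSeq start only. The outermost GENCODE start of SNHG18 (9546200) is the RefSeq start.
GAS5, chr1:173868996-173869095, minus strand: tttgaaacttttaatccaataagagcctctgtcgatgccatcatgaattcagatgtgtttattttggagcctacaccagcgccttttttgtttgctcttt
SNHG29, chr17:16438937-16439036, plus strand: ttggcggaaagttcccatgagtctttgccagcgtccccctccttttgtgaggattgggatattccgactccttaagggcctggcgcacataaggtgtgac
SNHG5, chr6:85678684-85678783, minus strand: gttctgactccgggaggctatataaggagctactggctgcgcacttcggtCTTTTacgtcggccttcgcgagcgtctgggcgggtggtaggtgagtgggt
SNHG18, chr5:9546150-9546249, plus strand: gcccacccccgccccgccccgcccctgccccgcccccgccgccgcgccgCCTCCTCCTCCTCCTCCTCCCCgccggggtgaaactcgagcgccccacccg
ZFAS1, chr20:49278592-49278691, plus strand: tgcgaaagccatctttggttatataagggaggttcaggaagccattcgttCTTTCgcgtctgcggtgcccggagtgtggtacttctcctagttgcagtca
SNHG1, chr11:62855836-62855935, minus strand: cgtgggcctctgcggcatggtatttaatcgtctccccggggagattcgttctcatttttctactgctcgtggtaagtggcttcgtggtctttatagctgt
DANCR, chr4:52712344-52712443, plus strand: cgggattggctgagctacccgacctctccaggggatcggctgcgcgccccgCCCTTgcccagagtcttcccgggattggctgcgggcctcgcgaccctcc
SNHG5, ZFAS1, SNHG18 and DANCR have the tract in these windows. At the RefSeq starts of GAS5, SNHG29 and SNHG1 no such letters were found within 5 bases.

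The hosts as a group did not stand apart from other genes in the comparison of U1_OE with WT. In the quasi-likelihood fit of edgeR, with p adjusted by Benjamini and Hochberg's method over all genes, 0 of 30 hosts lay under an adjusted p of 0.05, as did 0 of all 17317 tested genes (0%). At an unadjusted edgeR p under 0.05 there were 3 hosts (10.0%), 1 higher and 2 lower in U1_OE, against a background of 9.08% of all tested genes, 4.36% higher and 4.72% lower. DESeq2 called 0 hosts at an adjusted p of 0.05, against 1.08% of the genes to which it gave one. Both U1_OE libraries lay above both WT libraries in 6 hosts (19.7% of all tested genes did so) and below them in 7 (22% of all tested genes), so 13 hosts (43.3%) did not overlap between groups, close to the background of 41.8%. Of the 27 hosts with a mean of at least 50 counts, 3 (11.1%) had an unadjusted edgeR p under 0.05, against 10.1% of all genes at that level, and 13 did not overlap, against a background of 43.4%.

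Host differences were small in both directions. The median log2 fold change was -0.054 over the 30 hosts and -0.0055 over all tested genes, and the median size regardless of sign was 0.24 and 0.26. A total of 13 hosts had a log2 fold change above 0 and 17 below, with a range from -0.55 for SNHG1 to 0.67 for SNHG14. Among 2579 other tested genes that GENCODE types as long noncoding, the median was -0.11, and 8.07% had an unadjusted edgeR p under 0.05. The summed level of the 30 hosts was 2257 and 2039.6 CPM in U1_OE and 2297 and 2185 CPM in WT, a ratio of 0.959 between group means. These sums overlapped between the groups. GAS5, SNHG29 and SNHG5 alone made up 53.2% and 54.5% of the host counts in U1_OE and 54.5% and 55.4% in WT.

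**Figure D1:**
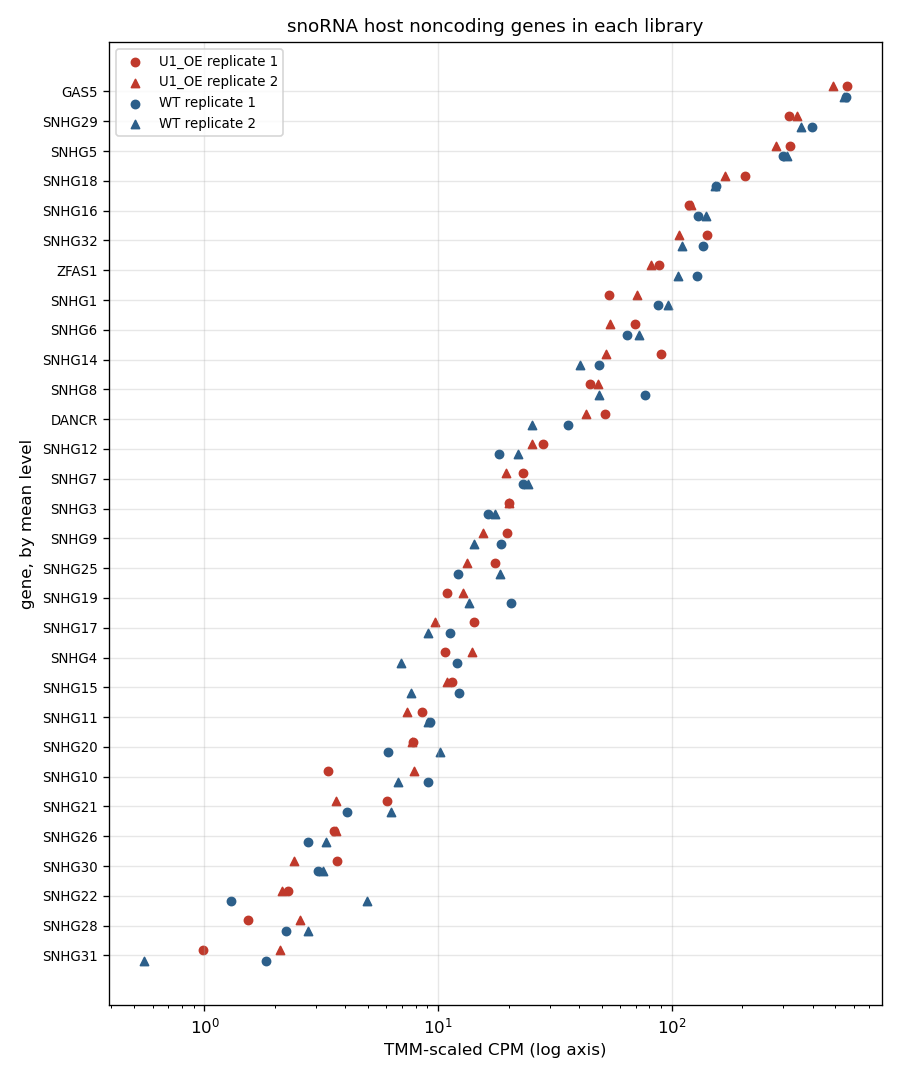
Level of each of the 30 hosts in each library as TMM-scaled CPM on a log axis, with U1_OE libraries in red above WT libraries in blue and genes ordered by mean level. Points of one gene lie close together along a range from 0.553 CPM for SNHG31 to 561 CPM for GAS5, and the groups are interleaved for most genes.

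**Figure D2:**
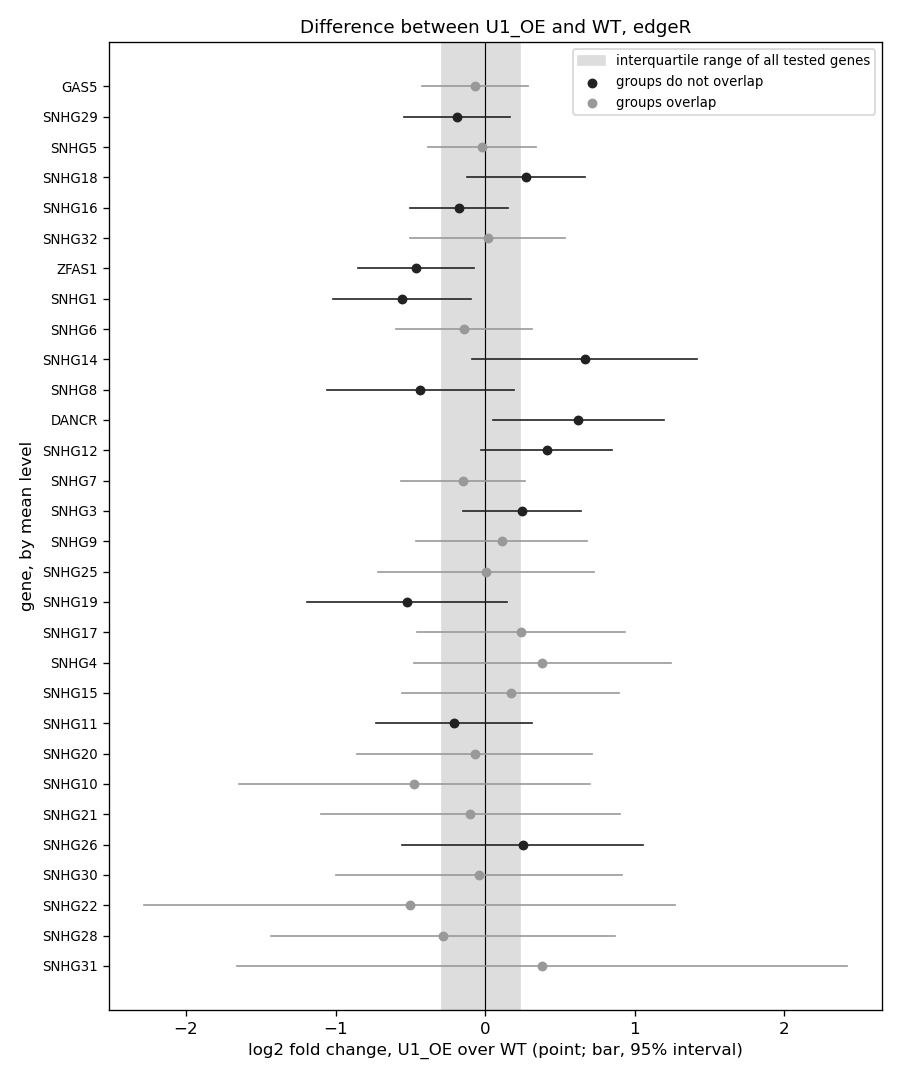
Log2 fold change of U1_OE over WT for each host by edgeR, with its 95% interval, beside the interquartile range of all tested genes in grey. Black marks the 13 hosts whose groups do not overlap, and the intervals of 3 hosts, ZFAS1, SNHG1 and DANCR, do not include 0.

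Among the box C/D hosts the largest in level was GAS5 (growth arrest specific, ENSG00000234741; chromosome 1, 173863900 to 173868882, minus strand), a transcript that accumulates in growth-arrested cells and is a long-known NMD target. GAS5 had 561 and 490.0 CPM in U1_OE and 556 and 546 CPM in WT. The WT values lie between the U1_OE values, and the log2 fold change was -0.068 ± 0.14 (SE, edgeR), with a 95% interval from -0.42 to 0.29. SNHG29, host of SNORD49A, SNORD49B and SNORD65, had 318 and 344 CPM in U1_OE and 398 and 356 CPM in WT. SNHG5, host of SNORD50A and SNORD50B, had 321 and 278 CPM in U1_OE and 299 and 309.6 CPM in WT. SNHG29 was lower in both U1_OE libraries by less than its interval could separate from 0 (-0.54 to 0.17 on the log2 scale), and SNHG5 overlapped between groups (-0.38 to 0.34).

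SNHG18, host of SNORD123, had 205 and 168 CPM in U1_OE and 155 and 154 CPM in WT. Its WT libraries were nearly equal and its U1_OE libraries both higher, with a log2 fold change of 0.27 ± 0.15. SNHG16, also known as ncRAN from neuroblastoma, had 118 and 121 CPM in U1_OE and 129.8 and 140.3 CPM in WT. SNHG32, which GENCODE release 29 types as protein coding, had 142 and 108 CPM in U1_OE and 136 and 110.0 CPM in WT. SNHG16 was lower in both U1_OE libraries at -0.17 ± 0.13, whereas SNHG32 had a higher replicate 1 than replicate 2 in each group.

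The 2 hosts with lower levels and an unadjusted edgeR p under 0.05 were both box C/D hosts. SNHG1 (ENSG00000255717; chromosome 11, 62851988 to 62855914, minus strand), also called U22 host gene, holds 8 box C/D snoRNAs in its introns and has an exonic sequence that is poorly conserved. SNHG1 had 53.9 and 70.8 CPM in U1_OE and 87.5 and 95.8 CPM in WT. Both U1_OE libraries were below both WT libraries, and the log2 fold change was -0.55 ± 0.18 (SE; 95% interval -1.02 to -0.093; edgeR adjusted p = 0.506). ZFAS1 (ENSG00000177410; chromosome 20, 49278178 to 49295738, plus strand), which starts opposite the gene ZNFX1, had 88.4 and 81.8 CPM in U1_OE and 128 and 107 CPM in WT. ZFAS1 was likewise lower in both U1_OE libraries, at -0.46 ± 0.15 (95% interval -0.85 to -0.072; edgeR adjusted p = 0.507). Exons of ZFAS1 overlap those of ZNFX1 on the other strand. The unadjusted edgeR p was 0.0273 for SNHG1 and 0.0286 for ZFAS1. For SNHG1 it stayed under 0.05 only without U1_OE replicate 2 (0.00750) when one library was left out, and was 0.0746 to 0.130 without WT replicate 1, WT replicate 2 or U1_OE replicate 1. For ZFAS1 it stayed under 0.05 only without WT replicate 2 (0.0459), and it was 0.0574 to 0.224 without the other libraries in turn.

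SNHG14, the long imprinted transcript of chromosome 15 whose distal part runs antisense to UBE3A in neurons, had the largest positive value among the hosts. It had 89.6 and 52.3 CPM in U1_OE and 49.0 and 40.5 CPM in WT. U1_OE replicate 1 stood 1.71-fold above U1_OE replicate 2, which was close to WT replicate 1. The log2 fold change was 0.67 ± 0.29 (95% interval -0.084 to 1.41; edgeR adjusted p = 0.576), and it was 0.24 without U1_OE replicate 1 and 1.00 without U1_OE replicate 2. With all 4 libraries its unadjusted p was 0.0712 by edgeR. It was 0.0358 by edgeR with replicate number as a block, and 0.0293 by DESeq2. Exons of SNHG14 overlap those of SNRPN on the same strand and UBE3A on the other. SNRPN had a log2 fold change of 0.16 ± 0.15 and UBE3A of -0.18 ± 0.15, and no source used here says how reads were divided between these genes.

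The remaining box C/D hosts ranged from 2.41 to 72.3 CPM. SNHG6, host of SNORD87, had 69.7 and 54.2 CPM in U1_OE and 64.0 and 72.3 CPM in WT. SNHG25, host of SNORD104, had 17.5 and 13.3 CPM in U1_OE and 12.1 and 18.5 CPM in WT. Both overlapped between groups. SNHG19, host of SNORD60, had 10.9 and 12.8 CPM in U1_OE and 20.4 and 13.6 CPM in WT. SNHG26, host of SNORD93, had 3.57 and 3.67 CPM in U1_OE and 2.77 and 3.32 CPM in WT. SNHG19 was lower in both U1_OE libraries (-0.52 ± 0.26) and SNHG26 higher in both (0.25 ± 0.31), each within an interval that includes 0. SNHG30, host of SNORD7, had 3.70 and 2.41 CPM in U1_OE and 3.06 and 3.21 CPM in WT, which overlapped.

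Of the box H/ACA hosts 8 had a log2 fold change above 0 and 3 below, with a median of 0.24, against 5 above and 9 below with a median of -0.054 among the box C/D hosts. Both U1_OE libraries lay above both WT libraries in 3 box H/ACA hosts and below them in 2, against 3 and 5 box C/D hosts. Of all 17317 tested genes 19.7% lay above and 22% below in this way. Of the same genes 8542 had a log2 fold change above 0 and 8775 below. When a library was left out, the signs of SNHG9, SNHG15, SNHG17 and SNHG31 changed among the box H/ACA hosts. Those of GAS5, SNHG5, SNHG6, SNHG25, SNHG30 and SNHG32 changed among the box C/D hosts. The difference between the classes was not tested. DANCR (ENSG00000226950; chromosome 4, 52712404 to 52720351, plus strand), host of SNORA26 and known as a noncoding RNA that holds back differentiation, was the host with a higher level and an unadjusted edgeR p under 0.05. It had 51.7 and 42.7 CPM in U1_OE and 36.0 and 25.3 CPM in WT. Both U1_OE libraries were above both WT libraries, and the log2 fold change was 0.62 ± 0.22 (SE; 95% interval 0.050 to 1.20; edgeR adjusted p = 0.528; unadjusted p = 0.0382). The unadjusted edgeR p was 0.142 without U1_OE replicate 1 and 0.179 without WT replicate 2, and stayed under 0.05 without WT replicate 1 (0.0175) or U1_OE replicate 2 (0.0390).

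SNHG12, host of SNORA44, SNORA61, SNORA16A and SNORD99, had 28.2 and 25.3 CPM in U1_OE and 18.2 and 22.0 CPM in WT. SNHG3, host of SNORA73A and SNORA73B, the U17 snoRNAs used in ribosomal RNA cleavage, had 20.02 and 20.08 CPM in U1_OE and 16.3 and 17.5 CPM in WT. Both genes had higher values in both U1_OE libraries, at 0.41 ± 0.17 and 0.25 ± 0.15 on the log2 scale, and neither interval excluded 0. SNHG8, host of SNORA24, had 44.5 and 48.3 CPM in U1_OE and 76.4 and 48.8 CPM in WT. WT replicate 1 alone stood high, and the log2 fold change of SNHG8 was -0.43 ± 0.24 with all libraries and -0.052 without WT replicate 1.

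The other box H/ACA hosts did not pass 24.3 CPM. SNHG7, host of SNORA17A and SNORA17B, had 23.2 and 19.6 CPM in U1_OE and 23.0 and 24.3 CPM in WT. SNHG9, host of SNORA78, had 19.8 and 15.6 CPM in U1_OE and 18.5 and 14.3 CPM in WT. Neither was separated by group. SNHG17 and SNHG11, neighbours on chromosome 20 that share the SNORA71 family, gave opposite signs. SNHG17 had 14.2 and 9.65 CPM in U1_OE and 11.2 and 9.01 CPM in WT. SNHG11 had 8.50 and 7.34 CPM in U1_OE and 9.24 and 9.01 CPM in WT. SNHG11 was thus lower in both U1_OE libraries, at -0.21 ± 0.20, and SNHG17 overlapped at 0.24 ± 0.27. SNHG4, host of SNORA74A, had 10.7 and 14.0 CPM in U1_OE and 12.1 and 6.91 CPM in WT. SNHG15, host of SNORA9, had 11.5 and 10.9 CPM in U1_OE and 12.2 and 7.63 CPM in WT. In both of these genes WT replicate 2 was the lowest library.

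The 4 scaRNA hosts all had log2 fold changes below 0, from -0.50 to -0.071. Of these 4, 0 were apart by group, against 41.8% of all tested genes. SNHG20, host of SCARNA16, had 7.82 and 7.76 CPM in U1_OE and 6.12 and 10.2 CPM in WT. SNHG10, host of SCARNA13, had 3.39 and 7.92 CPM in U1_OE and 9.01 and 6.75 CPM in WT. In SNHG20 the U1_OE libraries were nearly equal and lie between the WT libraries, and in SNHG10 a single low U1_OE library sets the difference. SNHG21, host of SCARNA15, had 6.04 and 3.67 CPM in U1_OE and 4.06 and 6.30 CPM in WT. The signs of all 4 changed when one library was left out. The 3 hosts under a mean of 50 counts, SNHG22 with SCARNA17, SNHG28 and SNHG31 with SNORA70I, had 10 to 90 counts in a library. SNHG22 differed 3.84-fold between the WT libraries and SNHG31 3.30-fold, so no difference of moderate size was detectable for SNHG22 and SNHG31 at this depth. SNHG28 differed 1.24-fold between the WT libraries and 1.67-fold between the U1_OE libraries. Its log2 fold change was -0.28, with a wide 95% interval from -1.43 to 0.87.

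How far the data bound a change differed between hosts and did not follow their level alone. The 95% interval of the fold change lay within 2-fold in either direction for 18 of the 30 hosts and within 1.5-fold for 6. These 6 were GAS5, SNHG29, SNHG5, SNHG16, SNHG32 and SNHG7. SNHG7, at 19.6 to 24.3 CPM, was among them with a log2 fold change of -0.15 ± 0.16 (SE). SNHG1 (-0.55 ± 0.18) and SNHG14 (0.67 ± 0.29) were not. Their estimates lay farther from 0 than that of SNHG7 and their standard errors were larger than its. SNHG32, also among the 6, had a larger standard error (0.20) than SNHG1, with an estimate of 0.019. For SNHG31 the interval reached 2.42 on the log2 scale. Exons of 18 of the 30 hosts overlap exons of another gene in GENCODE, on either strand, and no strand setting is stated, so their counts can include reads of the partner. On a per-length scale (CPM per kilobase of annotated exon, mean over the 4 libraries), GAS5 was again first at 148 ± 8.99 (SD), followed by SNHG5 at 108 ± 6.61, SNHG29 at 94.1 ± 8.83, SNHG18 at 87.4 ± 12.3 and SNHG32 at 68.8 ± 9.77. These SDs pool U1_OE and WT libraries, so they include differences between the groups. SNHG29 was lower and SNHG18 higher in both U1_OE libraries, and their order within a group was not tested. The short genes SNHG8 and SNHG25, at 59.0 ± 16.0 and 55.2 ± 11.2, ranked above SNHG1 at 20.5 ± 4.94, and SNHG31 was last at 0.648 ± 0.341.

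The genes that build snoRNPs and those that degrade RNA were read out of the same fit, and the lists were not tested as sets. Of all 17317 tested genes 8542 had a log2 fold change above 0 and 8775 below. An unadjusted edgeR p under 0.05 was found for 9.08% of them. Of 8 core snoRNP proteins 7 had a log2 fold change above 0, with a median of 0.27, 0 were called at an adjusted p of 0.05, and 1 had an unadjusted edgeR p under 0.05. That gene was NOP56, a core protein of box C/D snoRNPs and itself a snoRNA host, with 121 and 129 CPM in U1_OE and 90.9 and 88.4 CPM in WT (log2 fold change 0.48 ± 0.13, edgeR adjusted p = 0.459). GAR1, a core protein of box H/ACA snoRNPs, had 32.3 and 33.1 CPM in U1_OE and 23.2 and 27.9 CPM in WT. Both were higher in both U1_OE libraries. Of 12 snoRNP assembly factors 11 had values above 0 with a median of 0.19, 0 were called, and 1 had an unadjusted edgeR p under 0.05. That was RUVBL1, an AAA+ ATPase of the assembly machinery, at 0.50 ± 0.18, followed by RPAP3, its partner in the same machinery, at 0.55 ± 0.25.

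Of 31 protein-coding snoRNA hosts, 25 had log2 fold changes above 0 with a median of 0.13, 0 were called, and 2 (6.45%) had an unadjusted edgeR p under 0.05, 1 in each direction. NOP56 was the higher one. TPT1, a growth-related translationally controlled protein, had 3451 and 3818 CPM in U1_OE and 4682 and 4828 CPM in WT, lower in both U1_OE libraries at -0.39 ± 0.13. Of 79 ribosomal protein genes 45 had values above 0 and 34 below, with a median of 0.017, and 2 (2.53%) had an unadjusted edgeR p under 0.05, both higher, RPS27L at 0.41 ± 0.15 and RPS26 at 0.39 ± 0.14. None of the 79 was called by edgeR or DESeq2 at an adjusted p of 0.05.

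Of 15 NMD and exon junction factors 10 had values above 0 with a median of 0.11, 0 were called, and 1 had an unadjusted edgeR p under 0.05. That was SMG9, a regulator of the SMG1 kinase, with 59.6 and 64.1 CPM in U1_OE and 49.9 and 48.8 CPM in WT. UPF2, which bridges UPF1 to the exon junction complex, had 18.1 and 17.8 CPM in U1_OE and 13.1 and 14.0 CPM in WT. Of 12 tested genes listed as NMD targets 9 were above 0 with a median of 0.12 and 0 were called. DDIT3, a stress transcription factor, was the 1 with an unadjusted edgeR p under 0.05, at -0.60 ± 0.22 on the log2 scale. SMG5, an NMD factor, followed at 0.25 ± 0.12. The 19 genes of exosome and decapping pathways had a median of 0.013, with 0 at an unadjusted edgeR p under 0.05, led by XRN1, the cytoplasmic 5′ exonuclease, at -0.48 ± 0.20, and EXOSC6, an exosome subunit, at -0.40 ± 0.23.

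Among 8 tested long noncoding RNAs listed for comparison, 6 had values below 0 with a median of -0.24, 0 were called by edgeR and 1 by DESeq2, and 3 had an unadjusted edgeR p under 0.05, all lower. NEAT1, the paraspeckle scaffold, had 160.1 and 159 CPM in U1_OE and 404 and 351 CPM in WT. NORAD, a cytoplasmic RNA that binds Pumilio proteins, had 177 and 182 CPM in U1_OE and 229.9 and 282 CPM in WT. Both lay lower in both U1_OE libraries, at -1.24 ± 0.14 and -0.51 ± 0.15. MALAT1, named after its values were seen, was the third, at -0.67 ± 0.24.

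**Figure D3:**
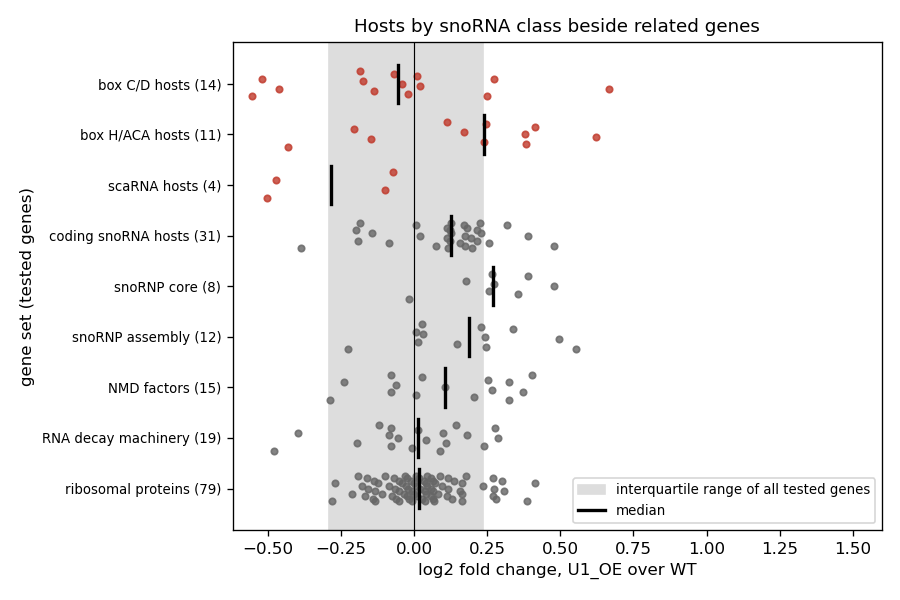
Log2 fold change of U1_OE over WT by edgeR for each tested gene of the host classes (red) and of related gene sets (grey), with the median of each set as a bar and the interquartile range of all tested genes shaded. The box H/ACA hosts have a median of 0.24, the box C/D hosts -0.054, the core snoRNP proteins 0.27 and the ribosomal proteins 0.017. Differences between the sets were not tested.

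For 8 hosts a protein-coding gene starts within 1000 bases on the opposite strand, by the outermost GENCODE starts of both genes. The distances hold for these starts only, which for GAS5, ZFAS1 and SNHG1 are not the RefSeq starts shown above. In 7 of the 8 pairs host and neighbour had the same sign of log2 fold change, and these pairs share libraries and depth. The share of same-sign pairs among other neighbouring genes was not worked out. Of the hosts in these 7 pairs, GAS5, SNHG9, SNHG22 and SNHG31 changed sign when a library was left out. The 95% intervals of host and neighbour both excluded 0 only for SNHG1 with SLC3A2. SNHG1 and SLC3A2, the heavy chain of several amino acid transporters, start 188 bases apart. SLC3A2 averaged 46.8 ± 4.88 CPM in U1_OE and 71.0 ± 10.4 CPM in WT (SD, n = 2 each), with a log2 fold change of -0.60 ± 0.17 by edgeR, beside -0.55 ± 0.18 for SNHG1. The exception was SNHG18, at 0.27 ± 0.15, whose neighbour SEMA5A, an axon guidance semaphorin, starts 125 bases away and had -0.40 ± 0.14. ZNFX1, 248 bases from ZFAS1, had -0.19 ± 0.22 beside -0.46 ± 0.15 for ZFAS1. RPS2, a ribosomal protein gene 99 bases from SNHG9, had 0.28 ± 0.17 beside 0.11 ± 0.22 for SNHG9. In the other 4 pairs (GAS5 with ZBTB37, SNHG19 with TRAF7, SNHG22 with ACAA2 and SNHG31 with BARD1) neither gene had an unadjusted edgeR p under 0.05.

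**Figure D4:**
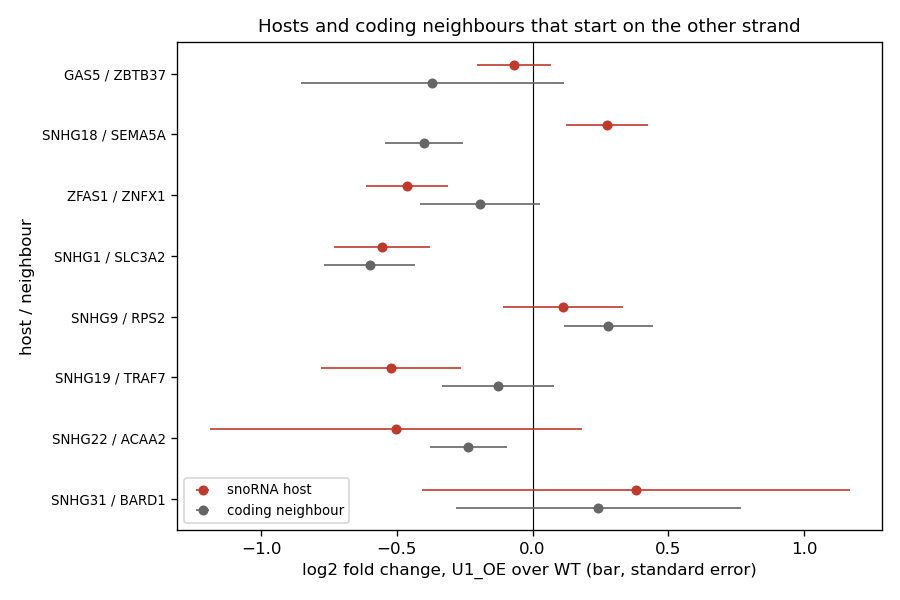
Log2 fold change of U1_OE over WT with its standard error by edgeR for 8 hosts (red) and the coding gene that starts within 1000 bases on the other strand (grey). Distances are between outermost GENCODE starts. Host and neighbour lie on the same side of 0 in 7 pairs, and SNHG18 and SEMA5A lie on opposite sides. The share of same-side pairs among other neighbouring genes was not worked out.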

How the data were processed

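RNA-seq of 2 U1_OE and 2 WT libraries was read from 1 table of estimated counts per gene deposited by the authors, not normalised. Per the submitters' processing notes, Trim Galore, STAR, featureCounts and DESeq2 were used with hg38, and versions, roles, annotation and strand setting are not given in the sources used here. Of values above 0, 1.99% lie within 0.01 of a whole number.

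The estimated counts were rounded and fitted over all genes with edgeR 4.0.16 (R 4.3.3), filterByExpr, TMM and the quasi-likelihood test, without a replicate block, U1_OE against WT, with Benjamini-Hochberg adjustment at 0.05. Standard errors and 95% intervals were worked back from the F statistic. DESeq2 1.42.0, limma-voom (limma 3.58.1), other scalings, filters, a replicate block and each library left out were alternatives. The procedures were tested on simulated data. Total counts of 16713505 to 19057423 limit precision for hosts of a few CPM, and 2 libraries a group limit it for the rest.

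Gene spans come from GENCODE release 29 (82.4% of rows matched), snoRNA positions and start windows from RefSeq GRCh38.p14. The members and lists were chosen with earlier results of these data known. Hosts with a mean of at least 50 counts are given in every library, and the 2 genes with the smallest p from each list are named.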

Additional observations from a re-analysis of the deposited data

How the results depend on the processing

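By edgeR, 0 hosts and 0 genes in all were called at an adjusted p of 0.05 under each scaling, filter, replicate block and left-out library, and by limma-voom also 0. DESeq2 called 189 genes in all and 0 hosts. With the replicate block, edgeR called 0 genes and 0 hosts, and 3 hosts (10%) had an unadjusted p under 0.05 (DANCR, SNHG1 and SNHG14), against 6.19% of all genes. The deviations of same-numbered libraries correlated at -0.11 across genes, so the numbers are not shown to pair the libraries. A crossed pairing, chosen after seeing the data, called 0 genes, with 3 hosts (10%) at an unadjusted p under 0.05, against 10.3% of all genes. Leaving out one library at a time gave 0 to 5 hosts with an unadjusted p under 0.05, and a median host log2 fold change from -0.12 to 0.052. Without U1_OE replicate 1 it was 0 hosts against 8.81% of all genes, without U1_OE replicate 2 it was 5 of 30 against 13.9%, without WT replicate 1 it was 1 (3.33%) against 4.65%, and without WT replicate 2 it was 3 (10%) against 4.32%. Over the alternatives the adjusted p was at least 0.254 for SNHG1, 0.424 for ZFAS1 and 0.339 for DANCR. By DESeq2, run without a count filter, 4 hosts (13.3%) had an unadjusted p under 0.05, against 5.43% of all genes. These were DANCR, SNHG1, SNHG14 and ZFAS1. The cause was not tested.

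The sign of 15 hosts held when any one library was left out, and that of the other 15 changed in at least one case. Their log2 fold changes over these fits ran from -0.16 to 0.022 for GAS5, -0.12 to 0.076 for SNHG5, -0.18 to 0.20 for SNHG32, -0.32 to 0.029 for SNHG6, -0.065 to 0.33 for SNHG9, -0.24 to 0.34 for SNHG25, -0.054 to 0.49 for SNHG17, -0.13 to 0.57 for SNHG15, -0.37 to 0.35 for SNHG20, -1.22 to 0.019 for SNHG10, -0.48 to 0.25 for SNHG21, -0.36 to 0.23 for SNHG30, -1.14 to 0.77 for SNHG22, -0.70 to 0.051 for SNHG28 and -0.27 to 1.49 for SNHG31. With library size alone, SNHG32 was -0.017 and SNHG25 -0.034, and with a mean of at least 50 counts SNHG25 was -0.011. The fits with a library left out keep 1 library in an arm, whose spread is taken from the arm with 2.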
